A study of Homo sapiens with 26 samples.

Results

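AMP-activated protein kinase (AMPK) is described here through the RNA of 6 of its subunit genes, PRKAA1, PRKAA2, PRKAB1, PRKAB2, PRKAG1 and PRKAG2, in a human colorectal carcinoma cell line with sublines labelled as knockouts of the Mediator kinases CDK8, CDK19 or both. The 6 members are 6 of 58039 genes in the count table and were taken by gene symbol. All 6 passed the filter on low counts and were tested. The family was chosen by the fold change of PRKAA2 in CDK19 knockout cells against control cells, which was among the large falls of that contrast, so every value from that contrast, and from CDK8 against CDK19 knockout cells, is a description here and carries no test. PRKAG3, the remaining subunit gene, had between 0 and 2 counts in each library and was not tested.

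RNA was sequenced from 26 libraries of HCT116 cells. CDK8 and its paralog CDK19 are alternative kinases of Mediator, the complex that relays signals from transcription factors to RNA polymerase II, and JQ1 is an inhibitor of BET bromodomain proteins, which bind acetylated chromatin. The groups, each named by its label, were cells labelled as CRISPR knockouts of CDK8 (CDK8KO-C1 and CDK8KO-C2, n = 3 each), of CDK19 (CDK19KO-C1 and CDK19KO-C2, n = 3 each) and of both genes (DKO-C1 and DKO-C2, n = 3 each), DKO-C1 given JQ1 (n = 2), control cells given JQ1 (n = 3) and control cells (n = 3). The labels do not say whether a subline is 1 clone, and the sources used here give neither the dose nor the duration of JQ1. In what follows, CDK8KO, CDK19KO and DKO are the mean of their sublines C1 and C2, and the knockout comparisons share the same 3 control libraries. The contrast that chose the family used these control libraries, as does the comparison of JQ1 in control cells. Tests of PRKAA2 against them are thus not independent of that choice.

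AMPK is a heterotrimer of a catalytic alpha subunit, a scaffolding beta subunit that binds glycogen and a gamma subunit that senses AMP, ADP and ATP. The upstream kinases LKB1 (gene STK11) or CaMKK2 phosphorylate the alpha subunit. When cellular energy falls, active AMPK slows lipid, sterol and protein synthesis and favours catabolism and autophagy. PRKAA1 encodes the catalytic subunit of most tissues, and PRKAA2 the catalytic subunit best known from skeletal muscle, heart and liver. PRKAB1 and PRKAB2 encode the beta subunits, and PRKAG1, PRKAG2 and PRKAG3 the gamma subunits, the last known from skeletal muscle.

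Each library held between 17700864 and 19093094 gene counts. CPM are counts scaled to a common library size, with TMM factors taken from the genes, and log2 fold changes are given ± SE. A gene was called at an adjusted p under 0.05 in edgeR's quasi-likelihood test, adjusted by Benjamini-Hochberg over the 17198 genes tested. Scaling by the ERCC spike-in moved the log2 fold change of the median gene by -1.22 for CDK8KO, by -1.65 for CDK19KO and by -0.90 for DKO, each against control cells. It moved it by 0.43 for CDK8KO against CDK19KO, by -0.27 for JQ1 in DKO-C1 and by -0.37 for JQ1 in control cells. Rises and falls below are thus measured against the median gene. A spike-in is named in the labels of DKO and control samples alone, although the single knockout libraries held ERCC counts as well. CDK8 RNA was 45.4 ± 1.77 CPM in CDK8KO and 38.4 ± 1.77 CPM in DKO, against 50.9 ± 1.12 CPM in control cells, and CDK19 RNA was 22.1 ± 3.78 CPM in CDK19KO and 35.9 ± 3.79 CPM in DKO, against 27.3 ± 2.73 CPM in control cells (SD, n = 6, 6 and 3). CDK8 RNA was lower in every CDK8KO and DKO library than in every control library. CDK19 RNA in CDK19KO overlapped the control libraries, and in DKO it was higher than in each of them, although the label names its knockout. A gene-level count cannot show whether a gene was disrupted. Loss of the proteins was not measured, so the knockout names used here, and every direction drawn from them, are those of the libraries' labels. Among 7 epithelial markers, VIL1 stayed under 1 CPM in every library, while the summed level of the 7 was 5629 to 7083 CPM in CDK8KO, 4968 to 5291 CPM in CDK19KO, 5977 to 7606 CPM in DKO, 6997 to 7127 CPM in DKO-C1 given JQ1 and 4706 to 5162 CPM in control cells given JQ1, against 3944 to 4513 CPM in control cells. The leukocyte, hepatocyte and endothelial lists each summed to under 1 CPM in every library, and the muscle list to between 0.455 and 2.75 CPM with MYOD1 at 0. The fibroblast list summed to 23.6 to 31.5 CPM in DKO, 15.3 to 24.3 CPM in CDK8KO and 15.3 to 20.3 CPM in CDK19KO. It summed to 21.3 to 24.6 CPM in DKO-C1 given JQ1 and 16.2 to 20.7 CPM in control cells given JQ1, against 13.8 to 15.4 CPM in control cells. In it COL1A2, DCN, PDGFRB and LUM (at 0) stayed under 1 CPM in every library, so the sum rests mainly on COL1A1 and COL3A1. The epithelial sum thus moved with the groups, without overlap between any knockout genotype and control cells, and its part in the results was not tested.

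The promoters of PRKAA2, PRKAA1 and PRKAG2 are shown because these are the member whose RNA varied most, its paralog, and the regulatory subunit gene with the widest range among the rest. The sequences are RefSeq's, build GRCh38.p14, from 250 bases before to 50 bases after a transcript start. Capitals mark the GC box, GGGCGG or its reverse complement CCGCCC, which is the core of sites bound by SP-family factors.
PRKAA2 at chr1:56645064-56645363, plus strand: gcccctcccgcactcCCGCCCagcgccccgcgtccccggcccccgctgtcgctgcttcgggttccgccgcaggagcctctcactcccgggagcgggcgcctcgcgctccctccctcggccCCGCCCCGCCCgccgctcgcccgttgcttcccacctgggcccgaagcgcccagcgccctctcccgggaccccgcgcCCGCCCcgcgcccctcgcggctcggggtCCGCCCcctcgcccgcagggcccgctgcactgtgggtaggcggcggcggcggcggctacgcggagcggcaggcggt
PRKAA1 at chr5:40798128-40798427, minus strand: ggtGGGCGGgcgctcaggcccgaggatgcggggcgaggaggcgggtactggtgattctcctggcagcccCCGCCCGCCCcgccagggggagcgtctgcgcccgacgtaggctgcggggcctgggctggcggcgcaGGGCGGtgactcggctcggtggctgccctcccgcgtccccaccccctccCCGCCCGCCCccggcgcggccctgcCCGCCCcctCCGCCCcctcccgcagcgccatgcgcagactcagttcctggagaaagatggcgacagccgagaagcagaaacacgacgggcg
PRKAG2 at chr7:151877066-151877365, minus strand: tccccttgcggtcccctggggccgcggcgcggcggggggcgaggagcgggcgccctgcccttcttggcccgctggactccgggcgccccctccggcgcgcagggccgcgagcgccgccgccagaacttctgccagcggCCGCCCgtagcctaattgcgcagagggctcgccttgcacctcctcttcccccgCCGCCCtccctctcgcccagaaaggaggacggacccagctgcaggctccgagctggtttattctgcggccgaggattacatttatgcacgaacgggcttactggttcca
The PRKAA2 window held 5 GC boxes and 48 CpG at 82.7% GC, and the PRKAA1 window held 8 GC boxes and 36 CpG at 77.0% GC. The PRKAG2 window, the first of 5 listed for this gene, held 2 GC boxes and 34 CpG at 71.3% GC. Across 35116 promoter windows of the same length, the medians were 58.7% GC and 14 CpG, and 45.0% held a GC box. None of the 3 windows held CCAAT or TATAAA on either strand, which 34.6% and 11.5% of all windows did. The letters describe these windows only, and no binding was measured.

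PRKAA2 (ENSG00000162409) lies on chromosome 1 from 56645322 to 56715335 on the plus strand in GENCODE v29, build GRCh38. Its 9354 exonic bases overlapped no exon of another gene and shared none of their 50-base words with another gene. The paralog PRKAA1 (ENSG00000132356) lies on chromosome 5 from 40759379 to 40798374 on the minus strand, with 6563 exonic bases and 0.887% of its words shared, none of them with PRKAA2. Reads of the 2 catalytic subunit genes can therefore be told apart at that length. Per kilobase of exon, PRKAA1 stood at 12.9 ± 0.376 CPM and PRKAA2 at 1.25 ± 0.0605 CPM in control cells (SD, n = 3), so the PRKAA1 level was 10.4 ± 0.622 times that of PRKAA2 within a library.

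The level of PRKAA2 differed more between groups than that of any other member. The highest group mean, in DKO-C1, was 20.1 times the lowest, in CDK19KO-C1. For the other members this ratio was 1.57 for PRKAA1, 1.45 for PRKAB1, 1.55 for PRKAB2, 1.50 for PRKAG1 and 2.66 for PRKAG2. The low end of the PRKAA2 range lies in CDK19KO, through which the family was chosen. This ranking is thus partly fixed by that choice and is a description. Outside CDK19KO, the PRKAA2 group means ran from 4.53 CPM in CDK8KO-C1 to 22.3 CPM in DKO-C1. By library, PRKAA2 had 4.39, 3.99 and 5.22 CPM in CDK8KO-C1 and 8.33, 7.84 and 9.45 CPM in CDK8KO-C2. It had 1.38, 1.23 and 0.724 CPM in CDK19KO-C1 and 2.01, 1.74 and 2.10 CPM in CDK19KO-C2. In the double knockouts it had 23.8, 23.6 and 19.4 CPM in DKO-C1 and 9.44, 8.66 and 10.3 CPM in DKO-C2. The CDK19 knockout libraries were thus lowest, and the DKO-C1 libraries highest, with DKO-C2 far from DKO-C1. PRKAA2 had 21.5 and 20.3 CPM in DKO-C1 given JQ1 and 10.8, 13.3 and 12.6 CPM in control cells given JQ1, against 11.5, 12.3 and 11.2 CPM in control cells. These values rest on 13 to 453 counts a library. From low to high, the group means ran CDK19KO-C1, CDK19KO-C2, CDK8KO-C1, CDK8KO-C2, DKO-C2, control, control given JQ1, DKO-C1 given JQ1 and DKO-C1. In 3 cases neighbours in that order overlapped, CDK8KO-C2 with DKO-C2, control with control given JQ1, and DKO-C1 given JQ1 with DKO-C1.

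**Figure D1:**
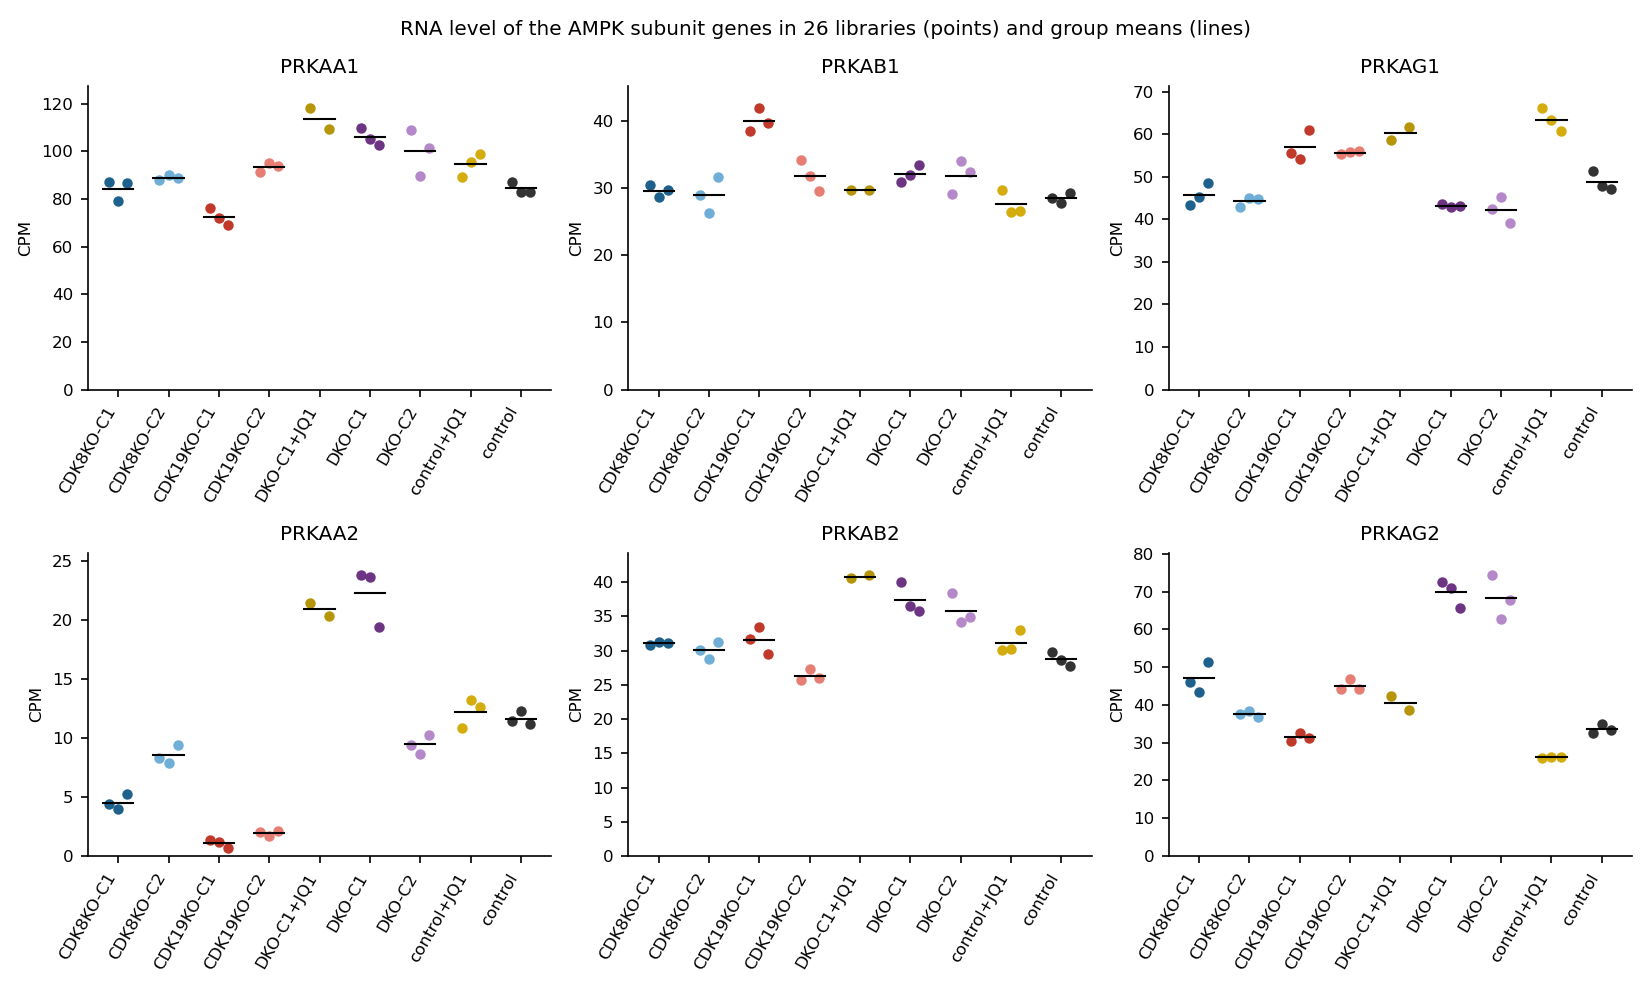
RNA level in CPM (vertical axis, from 0) of the 6 AMPK subunit genes in each library (points) by group, with the group mean as a line. PRKAA2 ranges from 0.724 CPM in a CDK19KO-C1 library to 23.8 CPM in a DKO-C1 library, while PRKAA1 stays between 69.3 and 118.0 CPM.

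Against control cells, PRKAA2 stood at 12.7% in CDK19KO, a log2 fold change of -2.98 ± 0.127. It was -3.38 ± 0.166 in subline C1 and -2.57 ± 0.146 in C2, and no library overlapped the control libraries. PRKAA1 stood at -0.04 ± 0.0502 in the same contrast. The other members stood at 0.33 ± 0.0603 for PRKAB1, 0.21 ± 0.0502 for PRKAG1, 0.16 ± 0.0577 for PRKAG2 and 0.003 ± 0.0554 for PRKAB2. In this contrast 43.0% of all genes were called, and no call is given for the members since the contrast chose the family. The PRKAA1 level per kilobase was 99.6 ± 32.0 times that of PRKAA2 in CDK19KO-C1 and 68.8 ± 7.98 times in CDK19KO-C2, against 10.4 ± 0.622 times in control cells (SD, n = 3 each). Between the single knockouts, PRKAA2 was 2.07 ± 0.126 higher on the log2 scale in CDK8KO than in CDK19KO, with no overlap of libraries.

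CDK8KO against control cells asks whether the subunits also move in the sublines labelled as CDK8 knockouts. PRKAA2 fell by 0.90 ± 0.0984 on the log2 scale, to a median of 6.53 CPM (range 3.99 to 9.45, n = 6) in CDK8KO, against 11.2 to 12.3 CPM in control cells (adjusted p = 1.95e-09, edgeR). The same control libraries took part in the choice of PRKAA2, so its p-values here are not independent of that choice. PRKAA2 is therefore best read here by its size and direction. It fell in both sublines, with -1.36 ± 0.123 in C1 (adjusted p = 2.54e-11) and -0.45 ± 0.109 in C2 (adjusted p = 0.00141). PRKAG2 rose by 0.32 ± 0.0572 (adjusted p = 2.11e-05), with no overlap of libraries. These were the 2 of 6 members called, 1 in each direction, where 40.5% of all genes were called either way, 19.5% higher and 21.0% lower. The other 4 members stood between -0.12 and 0.09 and were not called, the nearest being PRKAG1 at -0.12 ± 0.0506 (adjusted p = 0.0619). The median over the 6 members was 0.04, against -0.02 over all genes. The PRKAG2 call rested on C1, at 0.48 ± 0.0649 (adjusted p = 1.60e-07), while C2 alone gave 0.16 ± 0.0661 (adjusted p = 0.0615). With ERCC scaling PRKAG2 stood at -0.90 ± 0.131 and PRKAA2 at -2.13 ± 0.149.

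In DKO against control cells, whose labels name both kinases, PRKAA2 was called higher at 0.32 ± 0.0881 (adjusted p = 0.00194, edgeR), but this mean joins opposite changes. In DKO-C1 it rose by 0.94 ± 0.0945 (adjusted p = 7.45e-11) and in DKO-C2 it fell by 0.30 ± 0.107 (adjusted p = 0.0162), and the DKO libraries overlapped the control libraries in their range. The sublines differed from each other by 1.23 ± 0.0976 (adjusted p = 4.44e-12, edgeR), and PRKAA2 was the 1 member called between them, where 9.42% of all genes were. With ERCC scaling the mean of the sublines stood at -0.59 ± 0.145. The columns taken as DKO-C2 were matched to that subline by elimination.

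PRKAG2 was the member with the largest rise in both DKO sublines. It lies on chromosome 7 from 151556111 to 151877125 on the minus strand (ENSG00000106617) and is best known as a cardiac gamma subunit gene, whose mutations cause a glycogen-storage heart disease. By library it had 72.6, 71.0 and 65.7 CPM in DKO-C1 and 74.4, 62.7 and 67.7 CPM in DKO-C2, against 32.6, 35.0 and 33.4 CPM in control cells. No DKO library overlapped a control library. The log2 fold change was 1.04 ± 0.0562 (adjusted p = 1.32e-18, edgeR), with 1.05 ± 0.0628 in C1 and 1.02 ± 0.0629 in C2, and with ERCC scaling it was 0.13 ± 0.133 (adjusted p = 0.359). PRKAG2 stood at 46.2, 43.5 and 51.5 CPM in CDK8KO-C1 and 37.5, 38.5 and 36.7 CPM in CDK8KO-C2. It stood at 30.5, 32.5 and 31.3 CPM in CDK19KO-C1 and 44.2, 46.9 and 44.3 CPM in CDK19KO-C2, so that CDK19KO-C1 was the 1 knockout subline wholly below the control range.

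The other members moved less in DKO. PRKAB2 rose by 0.35 ± 0.0544 (adjusted p = 7.31e-07), PRKAA1 by 0.29 ± 0.0501 (adjusted p = 5.83e-06) and PRKAB1 by 0.17 ± 0.0605 (adjusted p = 0.0168), while PRKAG1 fell by 0.19 ± 0.0506 (adjusted p = 0.00127). With PRKAA2 and PRKAG2, 6 of 6 members were called, 5 higher and 1 lower, where 61.6% of all genes were called either way, 29.5% higher and 32.1% lower. The median over the members was 0.30, against -0.02 over all genes. Leaving out control replicate 2 ended the call of PRKAB1 (adjusted p = 0.0736). With ERCC scaling PRKAA1, PRKAB1, PRKAB2 and PRKAA2 were lower than in control cells.

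**Figure D2:**
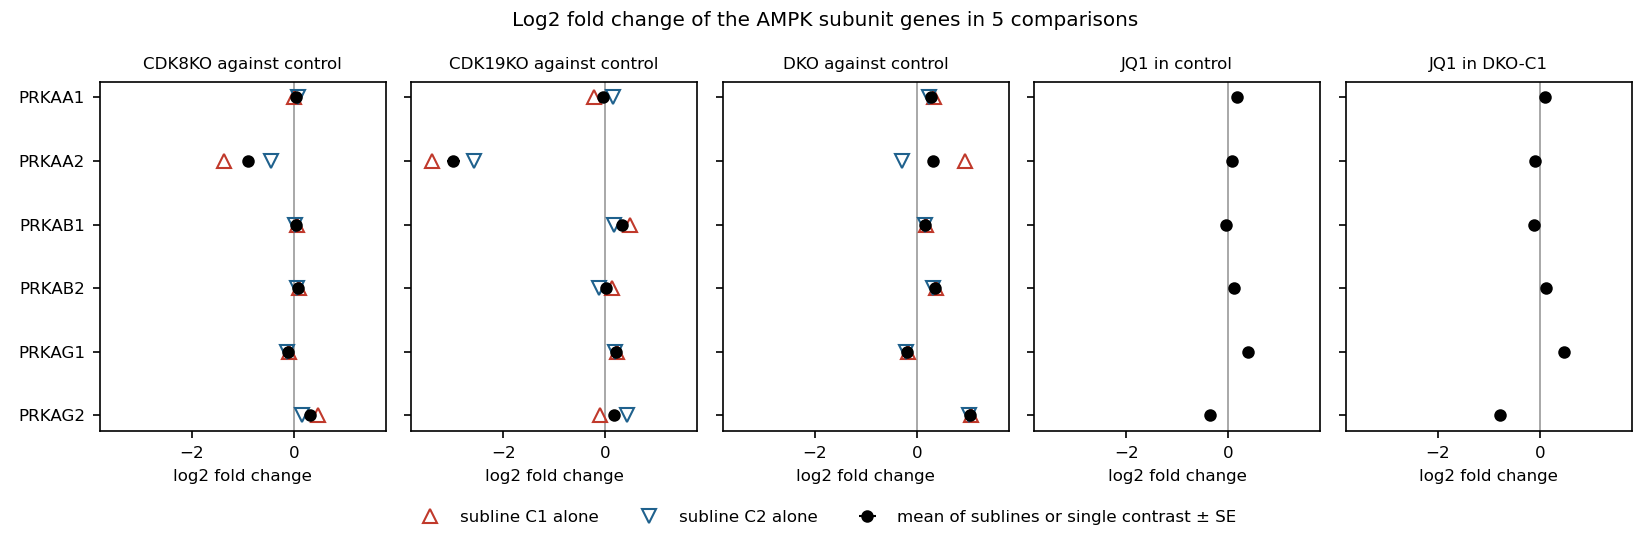
Log2 fold change (horizontal axis) of the 6 AMPK subunit genes in 5 comparisons, with gene-based scaling. Black points are the mean of the sublines or, for JQ1, the single contrast, with bars of 1 SE that are mostly smaller than the point; triangles are the sublines alone. PRKAA2 lies at -2.98 in CDK19KO and at -0.90 in CDK8KO, and in DKO its sublines lie on opposite sides of 0.

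JQ1 moved the gamma subunit genes in opposite directions and left PRKAA2 uncalled. PRKAG2 had 42.3 and 38.7 CPM in DKO-C1 given JQ1, against 72.6, 71.0 and 65.7 CPM in DKO-C1, and 26.1, 26.2 and 26.3 CPM in control cells given JQ1, against 32.6, 35.0 and 33.4 CPM in control cells. Treated and untreated libraries did not overlap in either background. PRKAG2 fell by 0.79 ± 0.0700 in DKO-C1 (adjusted p = 6.40e-12) and by 0.36 ± 0.0693 in control cells (adjusted p = 2.85e-05, edgeR). The difference between these responses was -0.42 ± 0.0984 (adjusted p = 0.00346), and PRKAG2 was the 1 of 6 members called for it, where 8.59% of all genes were. With ERCC scaling the difference was -0.32 ± 0.232 (adjusted p = 0.878), while both falls remained called.

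PRKAG1 (ENSG00000181929, chromosome 12 from 49002274 to 49018825, minus strand) encodes the gamma subunit of most tissues. It had 58.7 and 61.7 CPM in DKO-C1 given JQ1, against 43.6, 43.0 and 43.1 CPM in DKO-C1, and 66.1, 63.3 and 60.9 CPM in control cells given JQ1, against 51.3, 47.8 and 47.2 CPM in control cells. The libraries did not overlap, and PRKAG1 rose by 0.48 ± 0.0641 (adjusted p = 6.98e-08) in DKO-C1 and by 0.38 ± 0.0572 (adjusted p = 6.34e-07) in control cells. With ERCC scaling it was not called in either, at 0.21 ± 0.170 in DKO-C1 and 0.01 ± 0.152 in control cells. PRKAA1 rose by 0.16 ± 0.0577 in control cells (adjusted p = 0.0164), and this call was lost without any 1 of 3 libraries, control replicate 2, control replicate 3 or JQ1 replicate 3 (adjusted p up to 0.0892). Thus 2 of 6 members were called in DKO-C1, 1 higher and 1 lower, where 50.3% of all genes were called, 24.9% higher and 25.4% lower. In control cells 3 of 6 were called, 2 higher and 1 lower, where 56.0% of all genes were called, 27.0% higher and 29.1% lower. PRKAA2 stood at -0.09 ± 0.0980 in DKO-C1 (adjusted p = 0.459) and at 0.07 ± 0.104 in control cells (adjusted p = 0.584). PRKAB1 (ENSG00000111725, chromosome 12 from 119667753 to 119681630, plus strand) and PRKAB2 (ENSG00000131791, chromosome 1 from 147155106 to 147172550, minus strand) were called in neither background.

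Some exons of 3 members overlap a gene on the opposite strand, and no source used here gives the strand setting of the counting, so reads there cannot be told apart. The overlap is 84 bases for PRKAG2 with PRKAG2-AS1, 532 for PRKAG1 with DDN-AS1 and 137 for PRKAB1 with AC002070.1. PRKAG2-AS1, named after its values were seen, had 0.136 ± 0.0375 CPM (n = 2) in DKO-C1 given JQ1, against 1.30 ± 0.114 CPM (n = 3) in DKO-C1, and 0.285 ± 0.0579 CPM in control cells given JQ1, against 0.836 ± 0.276 CPM in control cells (SD, n = 3 each). Its group means ran from 0.136 to 1.46 CPM, those of PRKAG2 from 26.2 to 69.8 CPM, and its part in the PRKAG2 values was not tested.

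The ratio of 2 paralogs within a library does not depend on the scaling. The log2 ratio of PRKAG2 to PRKAG1 counts was 0.69 ± 0.0706 in DKO-C1 and 0.69 ± 0.193 in DKO-C2, against -0.53 ± 0.107 in control cells (SD, n = 3 each). PRKAG2 thus went above PRKAG1 in counts in the double knockouts, a difference of 1.22 ± 0.0812 with no overlap. It differed by 0.44 ± 0.0903 between CDK8KO and control cells. JQ1 gave differences of -1.26 ± 0.110 within DKO-C1 and of -0.74 ± 0.0725 within control cells, and none of these groups overlapped. The log2 ratio of PRKAA2 to PRKAA1 differed by -0.94 ± 0.201 between CDK8KO and control cells, also without overlap, and by 0.03 ± 0.265 between DKO and control cells (p = 0.929 in the exact permutation test, adjusted p = 0.929). In a two-sided exact permutation test, the 3 knockout differences without overlap had p = 0.0238, the smallest that 6 against 3 libraries allow. That test shuffles the libraries of 2 sublines as equal units. Yet the log2 ratio of PRKAA2 to PRKAA1 was -4.22 in CDK8KO-C1 and -3.38 in CDK8KO-C2. The JQ1 differences of PRKAG2 to PRKAG1 had p = 0.200 in DKO-C1 and 0.100 in control cells by the permutation test. These are the smallest that 2 or 3 against 3 libraries allow (adjusted p = 0.300 and 0.240). Over the 12 ratio tests, 0 passed after Benjamini-Hochberg adjustment by this permutation test, and 3 had an unadjusted p under 0.05 (adjusted p = 0.0952 for these 3). With a smallest possible p of 0.0238, 0.100 or 0.200 per test, few libraries left little room to pass. The adjusted result is thus not read as a lack of difference. The beta subunit ratio, PRKAB2 to PRKAB1, differed by 0.05 to 0.24 in the tested comparisons, with exact permutation p between 0.0952 and 0.310 (adjusted p between 0.240 and 0.371). In CDK19KO it stood at -0.31 ± 0.0984 (SD, n = 6), against 0.01 ± 0.0739 in control cells (n = 3), as a description.

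**Figure D3:**
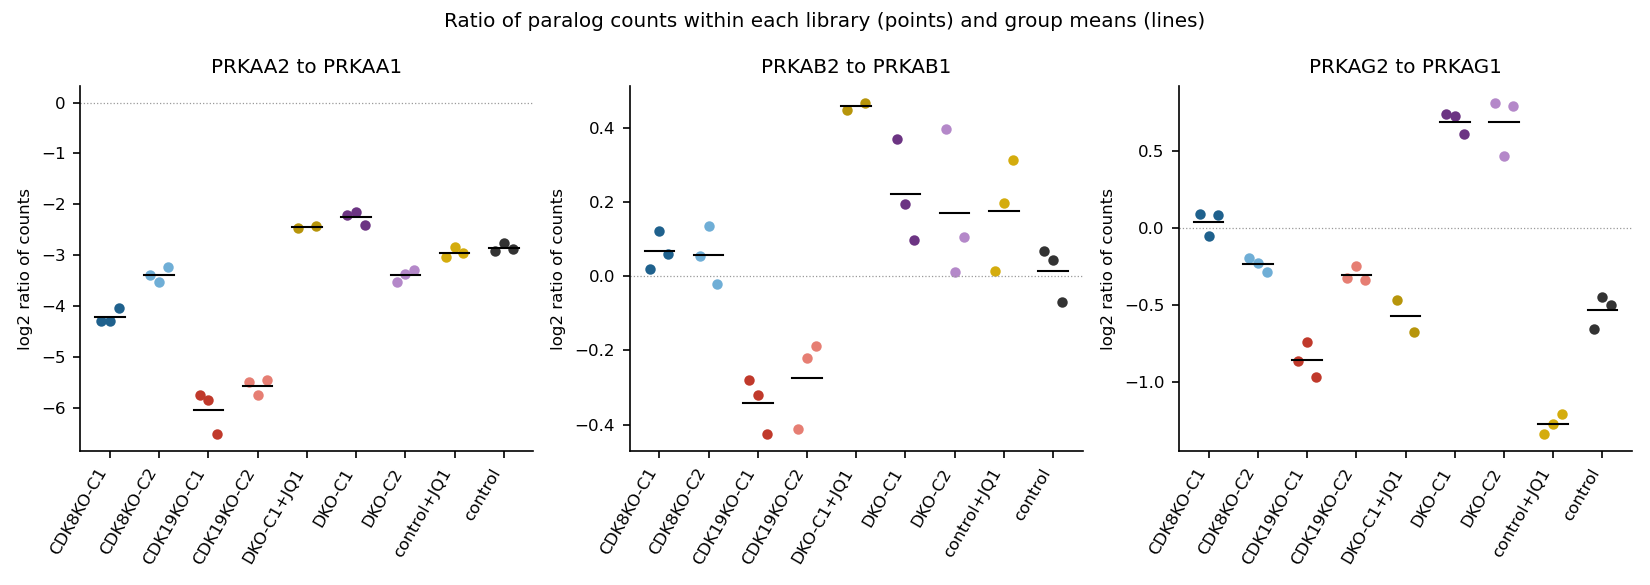
Log2 ratio of the counts of 2 paralogs (vertical axis) in each library (points) by group, with the group mean as a line and a dotted line at equal counts. PRKAG2 exceeds PRKAG1 in both DKO sublines, at a mean of 0.69 in each, and the PRKAA2 to PRKAA1 ratio is lowest in the CDK19KO sublines.

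Sublines of 1 genotype differed beyond the spread of their libraries. PRKAA2 was lower in CDK8KO-C1 than in CDK8KO-C2 by 0.91 ± 0.130 (adjusted p = 1.12e-06) and PRKAG2 was higher by 0.32 ± 0.0641 (adjusted p = 0.000207, edgeR), so that 2 of 6 members were called where 21.1% of all genes were. Between CDK19KO-C1 and CDK19KO-C2, 5 of 6 members were called, where 48.0% of all genes were. PRKAA2, PRKAG2 and PRKAA1 were lower in C1, by 0.81 ± 0.241, 0.52 ± 0.0658 and 0.37 ± 0.0584, and PRKAB1 and PRKAB2 were higher, by 0.33 ± 0.0675 and 0.26 ± 0.0643. Without CDK19KO-C1 replicate 3, the PRKAA2 difference was -0.58 and not called (adjusted p = 0.0622). The SE of the knockout contrasts measures the spread within sublines and not between them, and each genotype has 2 sublines.

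Of the 19 genes whose annotated span lies wholly within 1 Mb of PRKAA2, PLPP3 alone passed the filter. Genes that cross the edge of this window were not listed. PLPP3, which encodes a lipid phosphate phosphatase of the cell surface, starts on the opposite strand beside PRKAA2. It had 5.52 ± 0.842 CPM in CDK8KO, 2.55 ± 1.11 CPM in CDK19KO and 7.27 ± 0.585 CPM in DKO, against 4.27 ± 0.680 CPM in control cells (SD, n = 6, 6, 6 and 3). While PRKAA2 was lowest in CDK19KO-C1, PLPP3 had 3.48 ± 0.578 CPM there, overlapping the control libraries, and 1.61 ± 0.307 CPM in CDK19KO-C2 (SD, n = 3 each). It rose by 0.77 ± 0.111 in DKO (adjusted p = 1.92e-07, edgeR) and in both DKO sublines alone, and by 0.36 ± 0.117 in CDK8KO (adjusted p = 0.0130), where PRKAA2 fell. The CDK8KO call was lost with C1 alone (adjusted p = 0.346) and without control replicate 1 (adjusted p = 0.136), and with ERCC scaling PLPP3 stood at -0.86 ± 0.174 in CDK8KO and -0.13 ± 0.171 in DKO. Across the 9 group means of log2 CPM, Pearson's r with PRKAA2 was 0.759. The 5 genes most like PRKAA2 by that measure, among genes with at least 5 CPM in a group and an SD of at least 0.5 over groups, were CGN (r = 0.928), MBP (0.926), CLU (0.921), SLC1A4 (0.909) and TPCN1 (0.904). These r are descriptions over 9 groups that share genotypes and treatment. CGN, which encodes the tight-junction protein cingulin, had its lowest group means in CDK19KO, with 14.4 CPM in C1 and 13.5 CPM in C2. These genes were picked by r over groups that include CDK19KO, so low levels there are no separate result. Among the members, r with PRKAA2 was 0.760 for PRKAA1, 0.607 for PRKAB2, 0.252 for PRKAG2, -0.204 for PRKAG1 and -0.665 for PRKAB1, while PRKAG1 and PRKAG2 had r = -0.722 with each other.

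The genes around AMPK were taken as 4 lists with 51 genes, of which 49 were tested. In CDK8KO, 20 of the 49 were called higher and 5 lower, where 19.5% of all genes were called higher and 21.0% lower. The list median was 0.12 on the log2 scale, against -0.02 over all genes. Among 13 AMPK-related kinases, relatives of the catalytic subunits that LKB1 also activates with the exception of MELK, 8 were called, each higher, including NUAK1 (0.66 ± 0.0644), BRSK1 (0.63 ± 0.0847) and MARK4 (0.57 ± 0.0524). Of 11 upstream kinases and phosphatases, 3 were higher, with STK11 at 0.28 ± 0.0556 and CAMKK2 at 0.23 ± 0.0455, and 1 lower, the LKB1 partner STRADA at -0.30 ± 0.106. The STRADA call was lost with C1 alone and without CDK8KO-C1 replicate 2, control replicate 1 or control replicate 3 (adjusted p up to 0.130). Of 18 substrates, 8 were higher and 2 lower, with PFKFB3 (0.52 ± 0.0448), which drives glycolysis, SREBF1 (0.49 ± 0.0560), the regulator of lipid synthesis, and the autophagy kinase ULK1 (0.30 ± 0.0663) as the largest. Of 7 regulators, 1 was higher, SESN3 at 0.63 ± 0.147, and 2 were lower, DDIT4 at -1.31 ± 0.0644 and SESN2 at -0.45 ± 0.0538, which encode inhibitors of mTORC1 signalling induced by stress. With C1 alone SESN3 stood at 0.10 and was not called. With ERCC scaling all 49 genes were called lower, as were 16222 of all 17198 genes, so this count is close to that of genes at large.

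In DKO, 20 of the 49 were called higher and 14 lower, where 29.5% of all genes were called higher and 32.1% lower. The list median was 0.03, against -0.02 over all genes. The AMPK-related kinases had 9 higher and 1 lower of 13, led by NUAK2 (1.75 ± 0.103), NUAK1 (1.06 ± 0.0630) and SIK2 (0.52 ± 0.0550). The NUAK kinases act on cell adhesion, and SIK2 on CREB coactivators. NUAK2 averaged 14.7 CPM in DKO and 4.34 CPM in control cells. Upstream genes had 4 higher and 3 lower of 11, with STRADB at 0.62 ± 0.0616, CAB39L at 0.47 ± 0.0880 and CAMKK1 at -0.59 ± 0.0749. The regulators had 3 higher and 3 lower of 7, with DDIT4 at -1.38 ± 0.0648, SESN2 at -0.76 ± 0.0546 and FNIP2 at 0.51 ± 0.0827. The substrates had 4 higher and 7 lower of 18, with HDAC5 at -0.62 ± 0.0655, PFKFB3 at 0.42 ± 0.0448 and ACACB, the acetyl-CoA carboxylase that controls fatty acid oxidation, at -0.36 ± 0.0995, which was not called in C2 alone. With ERCC scaling, 1 of the 49 was called higher and 46 lower, where 585 of all 17198 genes were called higher and 14333 lower.

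On the same lists, JQ1 gave 18 higher and 12 lower of 49 in DKO-C1, where 24.9% of all genes were called higher and 25.4% lower, and 20 higher and 15 lower in control cells, where 27.0% were higher and 29.1% lower. With ERCC scaling the counts were 5 higher and 14 lower in DKO-C1, and 2 higher and 20 lower in control cells. Of all 17198 genes, that scaling called 923 higher and 4941 lower in DKO-C1, and 801 higher and 7666 lower in control cells. The AMPK-related kinases had 5 higher and 5 lower of 13 in each background, but with ERCC scaling the 6 called in DKO-C1 and the 5 called in control cells were each lower. BRSK1 fell by 1.62 ± 0.132 in DKO-C1 and by 2.02 ± 0.135 in control cells, and NUAK1 fell by 1.10 ± 0.0816 in DKO-C1 and by 0.95 ± 0.0879 in control cells. NUAK2 fell by 1.14 ± 0.126 in DKO-C1 and stood at 0.08 ± 0.142 in control cells, a difference of -1.22 ± 0.191 that was itself called, and SNRK rose by 0.49 ± 0.0634 in control cells. Both backgrounds thus lost RNA of NUAK1 and BRSK1. Among regulators, SESN3 rose by 1.34 ± 0.155 in DKO-C1 and by 1.19 ± 0.156 in control cells, and SESN1 rose by 0.74 ± 0.108 in DKO-C1 and by 0.61 ± 0.0910 in control cells. DDIT4 fell by 1.64 ± 0.114 in DKO-C1 and by 1.43 ± 0.0790 in control cells. Upstream, CAB39L, an adaptor of LKB1, fell by 1.23 ± 0.125 in DKO-C1 and by 1.73 ± 0.136 in control cells. CAMKK1, a second kinase of the CaMKK family, fell by 0.50 ± 0.113 in DKO-C1 and by 0.79 ± 0.0912 in control cells. STRADA rose by 0.74 ± 0.128 in DKO-C1 and by 0.34 ± 0.115 in control cells, and the call in control cells was lost without control replicate 2 or JQ1 replicate 2. Of the substrates, ULK1 rose by 0.85 ± 0.0829 in DKO-C1 and by 0.76 ± 0.0740 in control cells, and SREBF1 fell by 0.58 ± 0.0741 in DKO-C1 and by 0.42 ± 0.0651 in control cells. ACACB rose by 0.89 ± 0.127 in DKO-C1, and ACACA, the acetyl-CoA carboxylase of lipid synthesis, fell by 0.43 ± 0.0559 in control cells. Under ERCC scaling the SNRK, SESN1 and STRADA rises in control cells were not called. The RNA levels say nothing of phosphorylation or activity of the kinase, which was not measured.

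**Figure D4:**
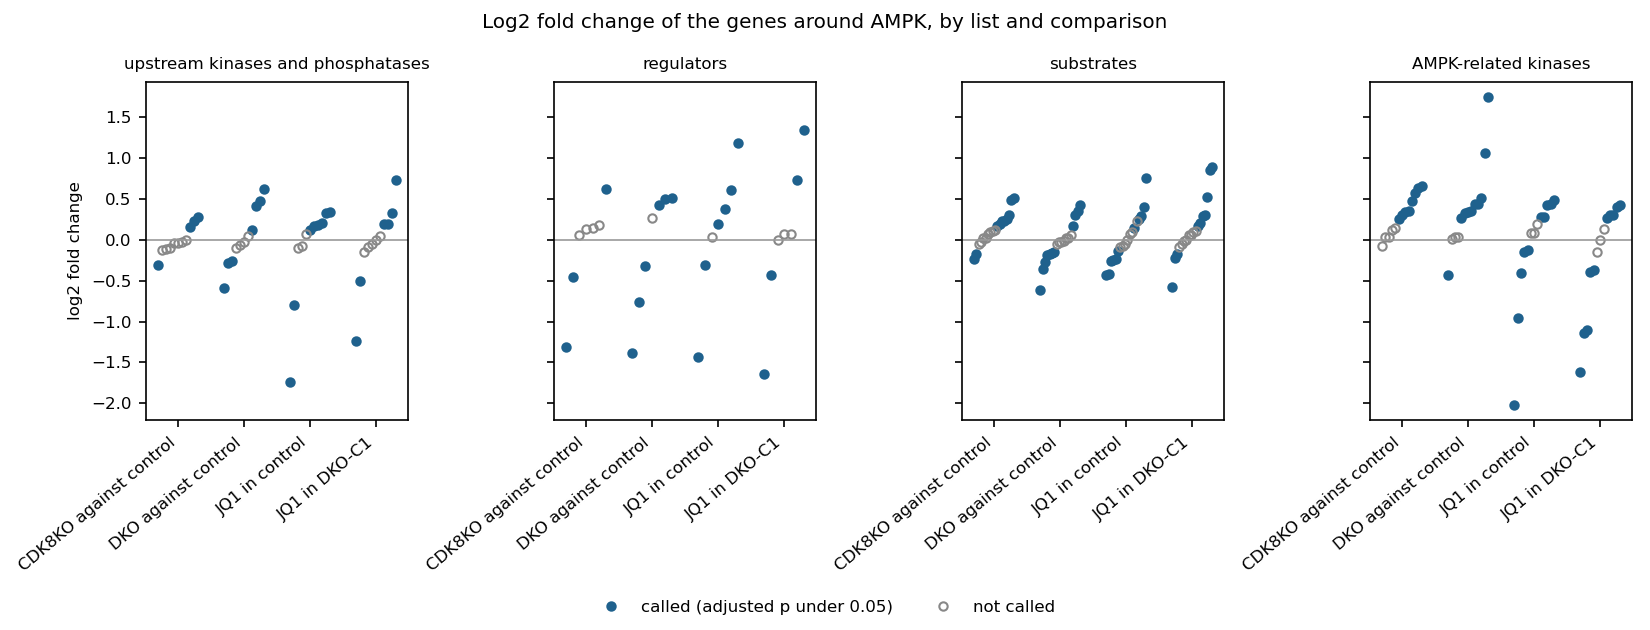
Log2 fold change (vertical axis) with gene-based scaling of the tested genes of 4 lists around AMPK in 4 comparisons; filled points passed an adjusted p under 0.05 in edgeR, open points did not. Of 13 AMPK-related kinases, 8 are called higher in CDK8KO, where 19.5% of all genes were. In DKO 9 are called higher and 1 lower, where 29.5% and 32.1% of all genes were. With ERCC scaling, 13 were called lower in CDK8KO, and 1 was called higher and 11 lower in DKO.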

How the data were processed

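Per the labels, total RNA of HCT116 cells was taken with a column kit and sequenced in pairs of 100 bases. Per the submitters' processing notes, the authors used build hg38, STAR 2.5.2 and featureCounts of Subread 1.6.3. As deposited, the table holds whole-number counts for genes and ERCC transcripts that were not normalised; the strand setting and annotation release are not given in the sources available. Of the 26 count columns, 22 matched 1 sample by name and 4 matched a group only: the 3 DKO-C2 columns by elimination, and 1 column of DKO-C1 given JQ1.

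The members, the pathway lists and the tests were chosen with earlier results of these data known. Counts were fitted with edgeR 4.0.16 (R 4.3.3, quasi-likelihood) over 9 groups, with TMM factors of 0.956 to 1.02 and filterByExpr (minimum count 10, minimum total 15), which left 17198 genes. Ratios of paralogs were log2 of counts plus 0.5, tested by two-sided exact permutation. The text names the 6 members, PRKAG3, up to 3 called genes with the largest change for each pathway list and comparison, the 5 genes most like PRKAA2 and tested genes that lie wholly within 1 Mb of it. The fit was checked on simulated counts. Chi-square divided by its degrees of freedom was 1.41 to 13.2 between libraries of a group, above sampling noise. Nothing says that replicates are separate cultures, so p-values measure only the spread between these samples, which may be technical. Alternatives were DESeq2 1.42.0, its size factors, no filter, ERCC factors, a replicate block, only the libraries compared, sublines alone, each library left out and a pseudocount of 2. All 6 members matched RefSeq's promoter table.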

Additional observations from a re-analysis of the deposited data

Results flagged for a closer look

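The response of PRKAG2 to JQ1 differed between DKO-C1 and control cells by -0.42 ± 0.0984 on the log2 scale (adjusted p = 0.00346, edgeR's interaction contrast). This difference was not called with ERCC scaling, and DKO-C1 given JQ1 had 2 libraries.

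Differences between sublines of 1 genotype, C1 against C2, were called for PRKAA2 in DKO (1.23), CDK8KO (-0.91) and CDK19KO (-0.81), for PRKAG2 in CDK8KO (0.32) and CDK19KO (-0.52), and in CDK19KO for PRKAA1 (-0.37), PRKAB1 (0.33) and PRKAB2 (0.26). In DKO, PRKAA2 was called higher than in control cells in C1 and lower in C2.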

How the results depend on the processing

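DESeq2, DESeq2 size factors, no filter on low counts and, for the ratios, a pseudocount of 2 kept the direction and the call of each result they were run on. ERCC scaling changed most. In CDK8KO the number of members called was 6, where 16277 of 17198 genes were called. The log2 fold changes in CDK8KO of PLPP3 (-0.86), PRKAA1 (-1.18), PRKAB1 (-1.18), PRKAB2 (-1.13), PRKAG2 (-0.90), STK11 (-0.94), CAMKK2 (-0.99), SESN3 (-0.58), PFKFB3 (-0.71), SREBF1 (-0.73), ULK1 (-0.91), NUAK1 (-0.56), BRSK1 (-0.58) and MARK4 (-0.65) turned negative. So did, in DKO, PLPP3 (-0.13), PRKAA1 (-0.62), PRKAA2 (-0.59), PRKAB1 (-0.73), PRKAB2 (-0.56), STRADB (-0.28), CAB39L (-0.42), FNIP2 (-0.39), PFKFB3 (-0.48) and SIK2 (-0.38), and, for JQ1 in control cells, PRKAA1 (-0.20) and STRADA (-0.016). ERCC scaling left 1 member called for JQ1 in DKO-C1, where 5864 of 17198 genes were called. For the difference of JQ1 responses it left 0 (edgeR), where 142 genes were called. It left 1 between CDK8KO sublines, where 966 genes were called, and 3 between CDK19KO sublines, where 5209 were. It gave PRKAA2 at -4.63 in CDK19KO and 2.49 in CDK8KO against CDK19KO.

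With subline C2 alone, 1 member was called in CDK8KO, where 5840 of 17198 genes were called, and PRKAA2 in DKO stood at -0.30. PRKAA2 in CDK19KO was -3.38 with C1 alone and -2.57 with C2 alone. Leaving out each library in turn, the number of members called was 2 to 3 in CDK8KO, 5 to 6 in DKO, 2 to 3 for JQ1 in either background and 4 to 5 between CDK19KO sublines. In the fit with the replicate number as a block, no result read from it changed its direction or call, and 7346 of 17722 genes were called in CDK8KO. The block used only libraries with a number from the labels, so DKO was DKO-C1 alone and DKO sublines could not be compared. Same-numbered libraries did not deviate together (r between -0.0629 and 0.0747 over 63 pairs). With only the libraries compared, PRKAG1 in CDK8KO was called.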
